A study of Mus musculus with 39 samples.

Results

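Brain RNA from mice given the oligonucleotide labelled ASO 3 was compared with brain RNA from mice given saline. The 9 libraries were those whose group label was ASO 3 (4 libraries, treatment code RTR113656) or Saline (5 libraries), out of 39 libraries in the series. The series holds 7 further oligonucleotide treatments in 30 libraries, and its design text says that the oligonucleotides target Tmem106b. An antisense oligonucleotide (ASO) is a short synthetic nucleic acid made to pair with a chosen RNA. The labels give the tissue as brain and the treatment, but no genotype, strain, age, dose, time or brain region, and the extraction protocol mentions a pellet of cells. The files hold read counts per gene from polyadenylated RNA, with 34327895 to 44205941 counts in the ASO 3 libraries and 31100492 to 35817642 in the saline libraries. All 16 markers checked of neurons, oligodendrocytes, astrocytes, microglia and endothelium were present, from Pecam1 at 26.7 to 30.7 CPM (counts scaled to one common library total) to Mbp at 3789 to 4960 CPM.

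Tmem106b encodes a membrane protein of late endosomes and lysosomes, and in humans variants at this gene modify the risk of frontotemporal dementia in carriers of mutations in GRN, the gene for progranulin. Many therapeutic oligonucleotides work through RNase H, which cuts the RNA strand that the oligonucleotide has paired with, and an RNA other than the target can be cut where it pairs well enough. Whether ASO 3 works in this way is not stated in the labels, and its sequence was not used here.

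One feature of the libraries comes before the results. ASO 3 replicates 1, 2 and 4 held 68.2, 66.2 and 52.0 CPM of Pmch, the precursor of a peptide made by neurons of the lateral hypothalamus, whereas ASO 3 replicate 3 held 0.436 CPM and the saline libraries held 0.309 to 1.27 CPM. Libraries above 5 CPM of Pmch are called high-Pmch here. The mean level of 16 hypothalamic genes was 3.27, 3.17, 1.26 and 2.67 (log2 CPM) in ASO 3 replicates 1 to 4 against 0.90 to 1.59 in saline. For 13 thalamic genes it was 5.19, 5.13, 3.94 and 5.06 against 4.24 to 4.35, and for 19 striatal genes 6.97, 7.14, 7.55 and 7.0 against 7.43 to 7.78. The 3 high-Pmch libraries thus lay above saline for hypothalamic and thalamic genes and below it for striatal genes, and replicate 3 lay among the saline libraries for the hypothalamic and striatal lists and below them for the thalamic list. Each result was therefore also fitted with the hypothalamic and striatal means as covariates (called regional covariates below) and without the high-Pmch libraries, which left ASO 3 with replicate 3 alone (called so below). In that last fit the single ASO 3 library was assumed to vary like the other groups. Fewer cells of a type and less RNA per cell cannot be told apart in bulk tissue.

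The target RNA was lower in every ASO 3 library. Tmem106b (ENSMUSG00000029571, GRCm38 chr6:13069759-13089269, plus strand) stood at 214, 187, 171, 195 and 192 CPM in the saline libraries and at 73.5, 86.5, 80.5 and 64.3 CPM in the ASO 3 libraries. The groups were far apart, and the mean was 60.3% lower (76.2 ± 9.54, n = 4, against 192 ± 15.6, n = 5, SD). The log2 fold change was -1.33 (SE 0.16, adjusted p = 1.48e-06 by edgeR's quasi-likelihood test with Benjamini-Hochberg adjustment over 19246 genes, the test used throughout), with a 95% interval of -1.64 to -1.03. Without the high-Pmch libraries the fall was -1.26 and did not pass the threshold of 0.05 (adjusted p = 0.151). Against the mean of the other 7 oligonucleotide treatments Tmem106b differed by -0.01 (adjusted p = 0.987), with 17 of their 30 libraries below the highest ASO 3 library.

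The family members Tmem106a and Tmem106c did not pass the test. Tmem106a stood at 2.31 ± 0.607 CPM in saline and 2.89 ± 0.413 CPM in ASO 3 (log2 fold change 0.32, 95% interval -0.02 to 0.65, adjusted p = 0.395). Tmem106c differed by 0.10 (adjusted p = 0.352).

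Grn, which the series title sets beside TMEM106B, stood at 85.7, 104, 81.1, 86.1 and 88.5 CPM in saline and at 122, 120, 120 and 112 CPM in ASO 3. All 4 ASO 3 libraries lay above all 5 saline libraries, yet the log2 fold change of 0.41 (SE 0.12, 95% interval 0.18 to 0.64) had an adjusted p of 0.0607. The call depended on saline replicate 2, the highest of its group, since the adjusted p was 0.0333 without it. It was also under the threshold with saline and ASO 3 alone in the fit (0.00174), with DESeq2 (0.0101) and with limma voom (0.0135). Of 11 measured genes for progranulin and its lysosomal partners, 2 rose (the lysosomal proteases Ctsl and Ctsd), 1 fell (Tmem106b, the target itself) and 8 did not pass. Over all genes 0.618% rose and 1.08% fell. Sort1, a receptor that takes up progranulin, differed by 0.01 (adjusted p = 0.969), and Psap, a progranulin partner that is cut into activators of lipid breakdown, by 0.04 (0.654).

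**Figure D1:**
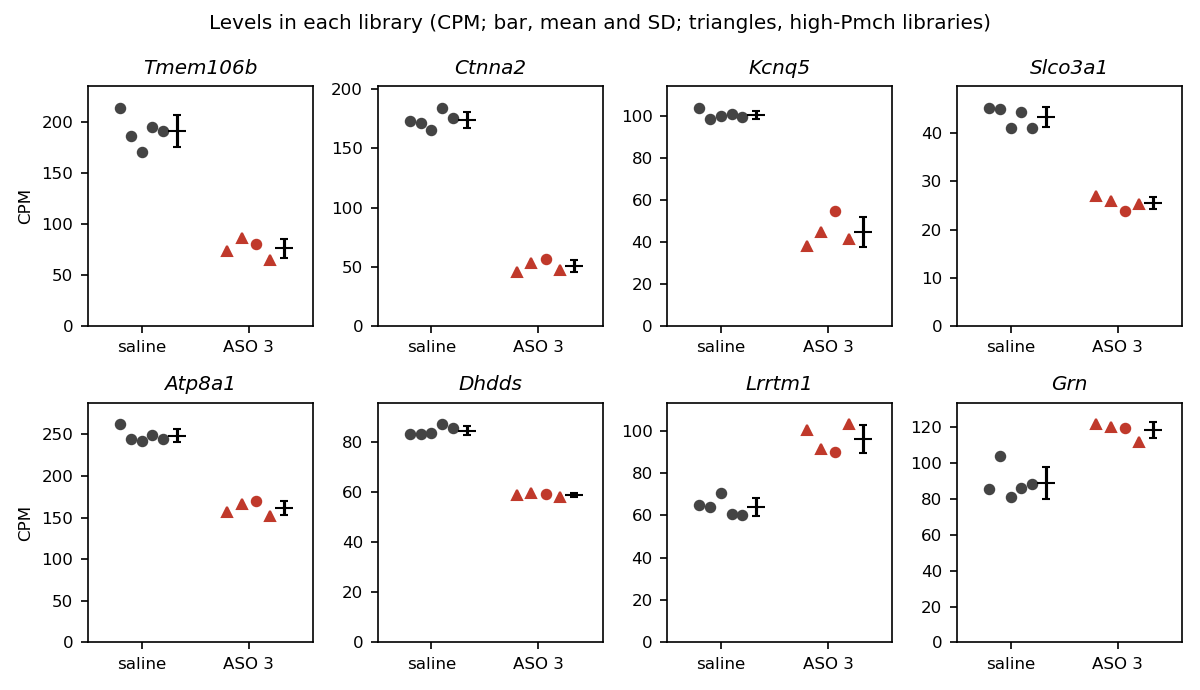
Level of 8 genes in each library (CPM, linear axes from 0) for saline (grey, 5 libraries) and ASO 3 (red, 4 libraries), with triangles for the high-Pmch libraries and bars for mean and SD. For 7 of the genes, and for Grn without a call, the ASO 3 libraries lie wholly below or above the saline libraries, and replicate 3 (red circle) lies with the other ASO 3 libraries.

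Across the transcriptome 327 of 19246 genes passed the threshold (1.7%), of which 119 were higher in ASO 3 (0.618%) and 208 lower (1.08%). The changes were mostly small, with 13 genes lower and 23 higher by at least 2-fold, and the median log2 fold change of all genes was 0.00. The ASO 3 and saline libraries did not overlap for 275 of the 327 genes, beside 6.24% of all genes tested. The 327 genes were called on these same libraries, so that share is no added support. The rule for naming the largest changes against saline also asked for no overlap. With regional covariates 124 genes passed (0.644%), 93 of them among the 327, and 326 of the 327 kept their sign. Without the high-Pmch libraries 25 of 19766 genes passed (0.126%), 23 of them among the 327, and 324 of the 327 kept their sign. Both refits use libraries on which the 327 genes were called, so the signs kept are no added support either. Leaving out ASO 3 replicates 1, 2, 3 and 4 in turn gave 120, 164, 607 and 146 genes. Leaving out saline replicates 1 and 3 gave 185 and 190, so single libraries in both groups moved the count by over 1.5 times.

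**Figure D2:**
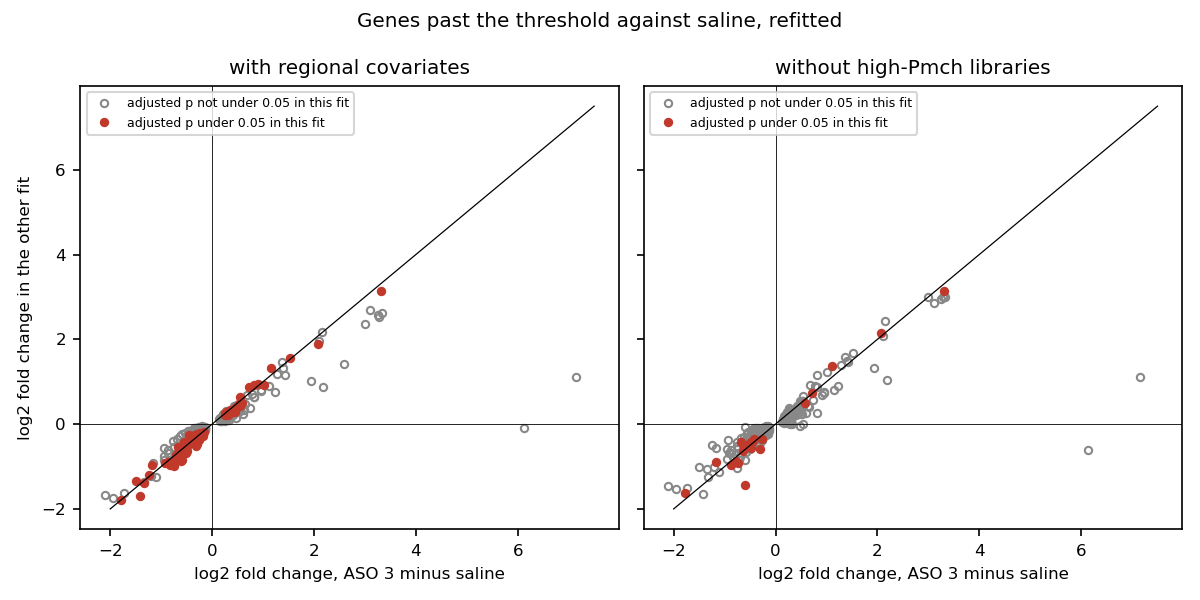
Log2 fold change of the 327 genes in the fit used throughout (horizontal axis) against the fit with regional covariates (left, vertical axis) and the fit without the high-Pmch libraries (right), with the line of equal values. Red filled points passed the threshold in the second fit. Most points follow the line, and the points farthest below it are Hcrt and Pmch, which fell from 7.15 and 6.13 to 1.1 and -0.09 with regional covariates.

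The gene that fell furthest by its test was Ctnna2 (ENSMUSG00000063063, chr6:76881637-77979699, minus strand), which encodes alpha-N-catenin, the neuronal protein that ties cadherin adhesion complexes to actin. Its level was 173, 171, 166, 184 and 176 CPM in saline and 45.6, 53.3, 56.6 and 47.4 CPM in ASO 3. The lowest saline library lay far above the highest ASO 3 library, and the mean was 70.9% lower (50.7 ± 5.12 against 174 ± 6.80). The log2 fold change was -1.78 (SE 0.06, adjusted p = 6.69e-25), and it was -1.78 with regional covariates and -1.62 in replicate 3 alone (adjusted p = 6.19e-13). It was the 1 gene called among 22 genes of cadherins and catenins (beside 1.7% of all genes), whose median was 0.01. Ctnna1, the widely expressed alpha-catenin, differed by -0.01 (95% interval -0.08 to 0.06), Ctnnb1 (beta-catenin) by 0.09 (adjusted p = 0.27) and Cdh2 (N-cadherin) by 0.06 (0.586). Ctnna3, the alpha-catenin known from heart, was scarce (1.59 ± 0.280 CPM in saline) and differed by -0.65 (0.0872). None of 19 genes of the Arp2/3 and WAVE actin regulators passed.

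The gene Lrrtm1 (ENSMUSG00000060780, chr6:77242689-77257791, plus strand) lies inside Ctnna2 on the opposite strand, and it moved the other way. It encodes a postsynaptic adhesion protein that binds neurexins at excitatory synapses. Its level was 65.0, 63.8, 70.3, 60.4 and 60.1 CPM in saline and 100, 91.1, 90.0 and 103 CPM in ASO 3, with no overlap and a mean 1.5-fold higher (96.0 ± 6.47 against 63.9 ± 4.17). The log2 fold change was 0.59 (SE 0.06, adjusted p = 1.21e-08), 0.50 with regional covariates and 0.49 in replicate 3 alone (adjusted p = 0.0103). In GENCODE M21 no exon of Ctnna2 overlaps Lrrtm1. The downstream end of Lrrtm1 is the nearer to the start of Ctnna2 and lies 721.9 kb into its 1098 kb span. The library kit marks strand, but whether the counting used strand is not stated. In the related pairs the Lrrtm gene also lies within the span of an alpha-catenin gene on the opposite strand, but there it overlaps 2 annotated host exons (Lrrtm2 in Ctnna1) or 1 (Lrrtm3 in Ctnna3). No gene of these pairs passed, with Lrrtm2 at -0.02 inside Ctnna1, and Lrrtm3 at -0.04 inside Ctnna3 at -0.65.

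**Figure D3:**
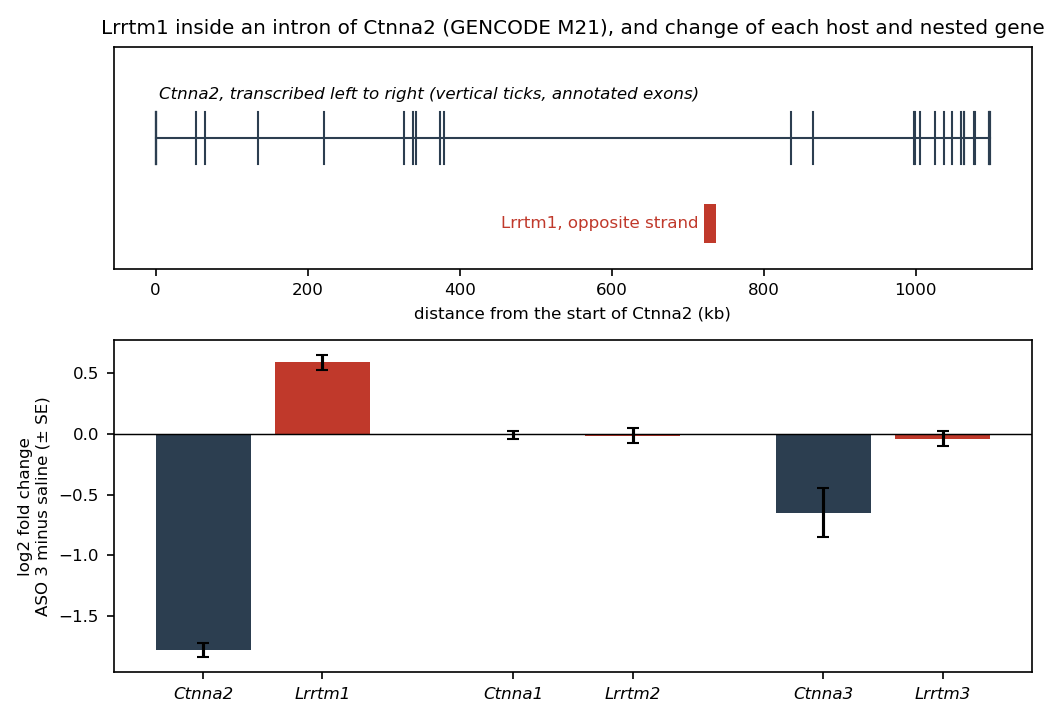
Upper panel, Ctnna2 drawn to scale by distance from its start (kb) with ticks for annotated exons. Lrrtm1 (red bar) is on the opposite strand, with its nearer end 721.9 kb from the start of Ctnna2. Lower panel, log2 fold change (ASO 3 minus saline, bars from 0, error bars SE) of the 3 host genes and their nested Lrrtm genes, where Ctnna2 at -1.78 and Lrrtm1 at 0.59 are the pair that passed the threshold.

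The potassium channel gene Kcnq5 (ENSMUSG00000028033, chr1:21398403-21961942, minus strand) encodes a subunit of the M current, which damps repetitive firing. Its level was 98.4 to 104 CPM in saline and 37.9, 44.7, 54.7 and 41.3 CPM in ASO 3. The groups did not overlap, and the level was 55.6% lower (log2 fold change -1.17, SE 0.08, adjusted p = 3.25e-12). The fall was -0.97 with regional covariates and -0.88 in replicate 3 alone (adjusted p = 2.51e-06), and replicate 3 had the highest Kcnq5 of the 4 ASO 3 libraries. Kcnq3, another channel gene of this family, differed by -0.05 (95% interval -0.16 to 0.06). Among 28 potassium channel genes Kcnq5 and 1 other passed, beside 1.7% of all genes. The other was the pacemaker channel gene Hcn2, which rose from 187 ± 9.14 to 208 ± 8.0 CPM (log2 fold change 0.16, adjusted p = 0.0345). Hcn2 did not pass with regional covariates (0.268) or in 5 of the 9 fits without 1 library.

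Ctnna2, Lrrtm1 and Kcnq5 belong to 17 genes that passed the threshold under all 17 alternative settings, 16 of them lower and Lrrtm1 higher. This set was chosen after its values were seen, and no test of the set is given. Dhdds, a subunit of the enzyme that makes the dolichol carrier for protein glycosylation, had the tightest values, at 82.9 to 86.9 CPM in saline and 58.6, 59.4, 59.3 and 57.8 CPM in ASO 3. That is 30.3% lower (log2 fold change -0.52, SE 0.03, adjusted p = 5.25e-17), and without the high-Pmch libraries the change was -0.51. Atp8a1, a flippase that moves phosphatidylserine to the inner membrane leaflet, went from 248 ± 8.05 to 161 ± 8.65 CPM (-0.62). Slco3a1, an organic anion transporter, stood at 41.0 to 45.3 CPM in saline and at 26.9, 25.9, 23.8 and 25.2 CPM in ASO 3 (-0.77, SE 0.06, adjusted p = 2.36e-13). St6galnac3, which adds sialic acid to glycans, fell by 0.87 on the log2 scale, from 15.4 ± 1.97 to 8.42 ± 0.986 CPM.

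Vps41, also of this set and a subunit of the HOPS complex that tethers late endosomes to lysosomes, went from 207 ± 4.85 to 155 ± 7.53 CPM (-0.42, SE 0.03). Ocrl, an inositol polyphosphate phosphatase, went from 89.3 ± 2.56 to 64.6 ± 2.16 CPM (-0.47), and Pld1, which makes phosphatidic acid, from 11.8 ± 0.364 to 7.13 ± 0.697 CPM (-0.73). No gene of the lysosomal list fell, as given below.

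The remaining members have other roles. Ezh1, a histone methyltransferase of Polycomb complexes, changed by -0.49 and Samhd1, which degrades deoxynucleotides, by -0.55. Tmod1, which caps actin filaments, changed by -0.67, and its highest ASO 3 library was replicate 3 at 62.7 CPM beside 48.0 to 52.0 CPM in the other 3 and 79.6 to 89.0 CPM in saline. Lamc1, a laminin chain, changed by -0.51, Tbc1d32, a gene of primary cilia, by -0.64, and Apbb2, an adaptor that binds the amyloid precursor protein, by -0.26. Cldn11, the claudin of myelin tight junctions, changed by -0.49. Over the 17 settings the weakest adjusted p of these members was 0.0406, for Cldn11.

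The same 17 genes also passed the threshold in the contrast of ASO 3 with the mean of the other 7 treatments, a contrast that uses no saline library but the same 4 ASO 3 libraries by which they were chosen, so it is no independent support. For 15 of the 16 lower genes no library of the 30 lay as low as the highest ASO 3 library, and for St6galnac3 1 of 30 did. Lrrtm1 was higher in each ASO 3 library than in all 30, whose highest value was 82.9 CPM. Across genes, 680 passed in this contrast (3.53%), 329 higher and 351 lower, and 226 genes (1.17%) passed against saline and against the other treatments in the same direction, 146 lower and 80 higher. With regional covariates 139 genes passed this contrast (0.722%), and without the high-Pmch libraries 28 did.

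Ctnna2 and Kcnq5 were not at the saline level in all other groups. Group means of Ctnna2 ran from 57.3% of the saline mean with RTR113609 to 92.7% with ASO 4, beside 29.1% with ASO 3. Kcnq5 ran from 83.0% with RTR113609 to 114% with ASO 2, beside 44.4% with ASO 3. Dhdds stayed between 97.0% and 102% in the other 7 groups and was at 69.7% with ASO 3. Tmem106b itself lay between 27.7% with ASO 1 and 58.8% with ASO 4, and ASO 3 at 39.7% lay within that range.

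**Figure D4:**
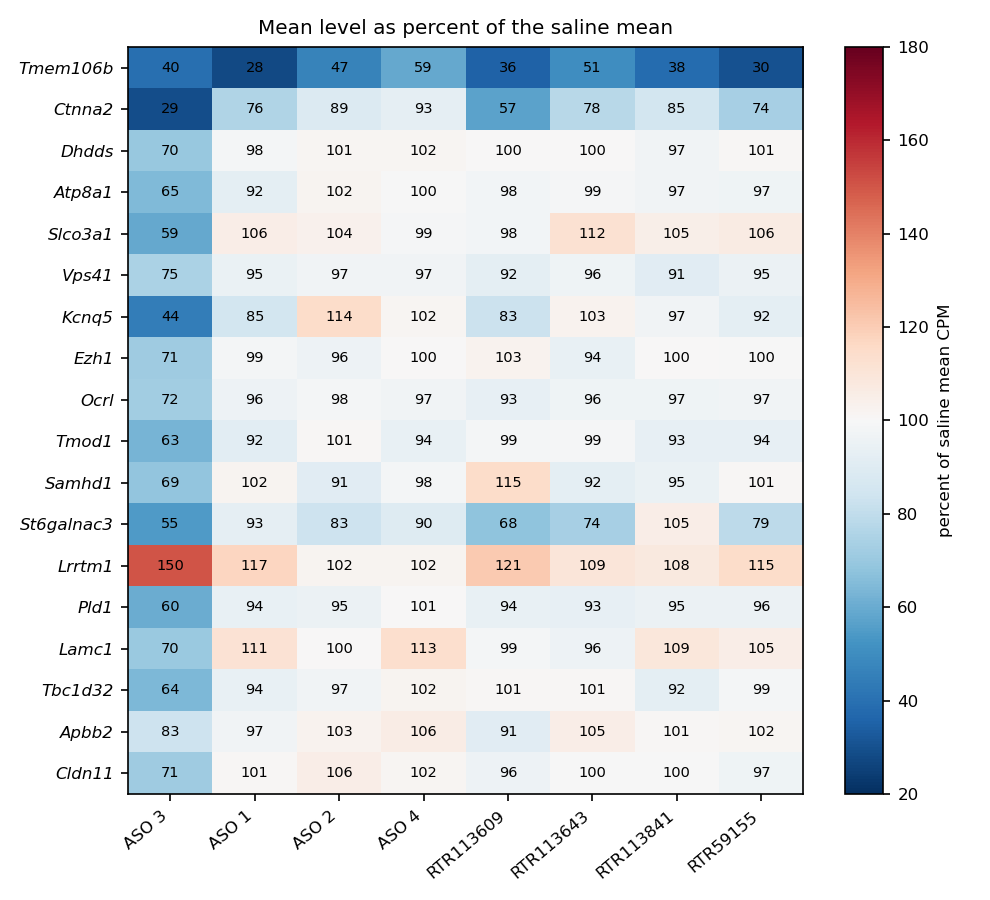
Mean level of Tmem106b and the 17 genes in the 8 oligonucleotide groups as percent of the saline mean, printed in each cell and coloured from 20 (blue) to 180 (red). Tmem106b is blue in every column, whereas Dhdds is at 69.7 with ASO 3 and between 97.0 and 102 in the other columns.

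Other large falls were in scarcer genes. Gbx1, a homeobox factor, went from 6.20 ± 0.930 to 3.25 ± 1.05 CPM (-0.94, adjusted p = 0.0218) and Ano2, a calcium-gated chloride channel, from 14.1 ± 1.62 to 8.32 ± 1.80 CPM (-0.76, 0.0355). Sla2, an adaptor of antigen receptor signalling, went from 1.09 ± 0.251 to 0.597 ± 0.138 CPM (-0.87, 0.0375). Shcbp1l went from 1.16 ± 0.170 to 0.694 ± 0.163 CPM (-0.75, 0.0398) and was also lower than in the other treatments (-0.79, 0.00259). None of these 4 passed with regional covariates, and among 9 fits with 1 library missing the calls of Gbx1, Ano2, Sla2 and Shcbp1l were lost in 5, 7, 5 and 6. Btbd16, whose annotated span overlaps that of the growth factor receptor gene Fgfr2 on the opposite strand, went from 1.25 ± 0.118 to 0.698 ± 0.0860 CPM (-0.83, 0.0147), and Fgfr2 rose from 76.1 to 106 CPM (0.47, 3.25e-06), and without the strand setting the reads of such a pair cannot be assigned with certainty.

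Immediate early genes are transcribed within minutes of neuronal firing, many through the factors CREB and SRF. Of 28 measured, 23 had lower means in ASO 3 and 3 fell (beside 1.08% of all genes), and the list median was -0.38 beside 0.00 for all genes. Egr2, a zinc finger factor of this class, stood at 6.72, 7.52, 5.69, 15.9 and 11.8 CPM in saline and 1.55, 2.51, 3.34 and 3.94 CPM in ASO 3, with no overlap (-1.73, SE 0.37, adjusted p = 0.0104). Egr4, of the same family, went from 20.7 ± 1.59 to 13.3 ± 1.95 CPM (-0.63, 0.0114), and Egr1 from 361 ± 71.6 to 198 ± 41.8 CPM (-0.87, 0.0153). The saline libraries themselves spread widely for these genes, with replicates 4 and 5 at the top for Egr2. With 1 library left out at a time, the calls of Egr2 and Egr4 were lost in 1 of 9 fits and that of Egr1 in 3.

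Other well-known members did not pass against saline. Npas4, a factor induced by calcium entry, stood at 20.7 to 25.6 CPM in saline and at 8.49, 5.91, 10.02 and 8.77 CPM in ASO 3 (-1.51, adjusted p = 0.0586), and it passed against the other treatments (-1.31, 0.0343). Arc, which acts at synapses to remove AMPA receptors, was at 285 ± 101.3 against 109 ± 54.0 CPM (-1.39, 0.067), Fos at 34.7 ± 12.6 against 14.4 ± 3.87 CPM (-1.26, 0.086) and Junb at 61.5 ± 6.11 against 31.4 ± 9.14 CPM (-0.96, 0.0908). The groups did not overlap for 14 of the 28 genes, beside 6.24% of all genes. Homer1 differed by -0.05 (adjusted p = 0.912) and Bdnf by 0.20 (0.309). Against the other 7 treatments 7 of 28 were lower (beside 1.82% of all genes) and none higher. With regional covariates none of the 28 passed and the median was -0.31, and in replicate 3 alone none passed and the median was -0.34.

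The promoters of 22 of these 28 genes were in the RefSeq table (GRCm38.p6). Those of Egr2, Egr4 and Npas4 are printed because they carry the sites that calcium-driven factors use. Arc, Fos, Junb and Egr1 had larger falls than Egr4 by log2 fold change and are not printed. Whether these sites bear on the falls was not tested. The letters TGACG, the core of the cAMP response element, were searched on both strands in the 250 bases before each start, as was the CArG box of SRF. Counting a gene once where any of its listed starts matched, TGACG stood before 16 of the 22 genes beside 19.8% of 27025 genes, and the CArG box before 2 of 22 beside 1.62%. For a gene with several starts the window with the most matches is printed. Capitals mark TGACG or its complement CGTCA, and in Egr2 also 1 CArG box, and no marked matches overlap. A match is a description of the letters and not of binding.
Egr2 (chr10:67537619-67537868, plus strand): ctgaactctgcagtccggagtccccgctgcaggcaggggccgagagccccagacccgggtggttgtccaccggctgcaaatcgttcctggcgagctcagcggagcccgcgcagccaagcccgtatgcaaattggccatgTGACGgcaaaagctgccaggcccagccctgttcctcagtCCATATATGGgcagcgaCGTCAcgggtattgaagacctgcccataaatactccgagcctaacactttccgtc
Egr4 (chr6:85513590-85513839, minus strand): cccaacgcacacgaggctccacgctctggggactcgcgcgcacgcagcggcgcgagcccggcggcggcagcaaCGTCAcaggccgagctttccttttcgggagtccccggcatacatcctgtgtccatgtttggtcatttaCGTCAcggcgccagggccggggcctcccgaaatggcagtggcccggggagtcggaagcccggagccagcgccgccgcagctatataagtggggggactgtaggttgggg
Npas4 (chr19:4989972-4990221, minus strand): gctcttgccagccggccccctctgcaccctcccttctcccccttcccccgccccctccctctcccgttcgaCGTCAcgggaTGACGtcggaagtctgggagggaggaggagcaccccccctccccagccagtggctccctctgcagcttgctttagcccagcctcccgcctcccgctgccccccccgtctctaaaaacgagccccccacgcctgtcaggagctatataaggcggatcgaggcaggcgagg

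Cdkn1a encodes p21, a cyclin-dependent kinase inhibitor and a classic target of the stress factor p53. It stood at 21.9, 20.1, 18.8, 17.6 and 16.8 CPM in saline and at 24.4, 26.2, 31.8 and 43.1 CPM in ASO 3. Every ASO 3 library lay above every saline library, with a wide spread in ASO 3 (31.4 ± 8.44 against 19.0 ± 2.05). The log2 fold change was 0.72 (SE 0.12, adjusted p = 0.000343), 0.87 with regional covariates (0.000167) and 0.73 in replicate 3 alone (0.0103). Of 24 measured p53 targets 3 rose and 1 fell, beside 0.618% and 1.08% of all genes, and the median was 0.09. Gtse1, a gene of the G2 phase that restrains p53, went from 0.771 ± 0.152 to 1.45 ± 0.220 CPM (0.91, 0.00466), and Phlda3, which blocks Akt signalling, from 30.1 ± 1.62 to 36.3 ± 3.39 CPM (0.27, 0.0188). The kinase gene Plk2, also an activity gene in neurons, went from 188 ± 8.94 to 153 ± 16.4 CPM (-0.30, 0.0404). Mdm2, the ligase that removes p53, differed by 0.02 (95% interval -0.06 to 0.10), Ccng1 by 0.22 (0.0723) and Zmat3 by 0.00 (0.99). Leaving out 1 library at a time ended the call of Phlda3 in 3 of 9 fits and that of Plk2 in 7, and ended those of Cdkn1a and Gtse1 in none. Neither Cdkn1a nor Gtse1 was among the 17 genes that passed under all 17 alternative settings.

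A half-site of p53 stood before 9 of 19 genes of the list with a promoter beside 8.20% of all genes, on either strand of the same 250 bases. The list was chosen as known p53 targets, so this share describes the list and says nothing about the oligonucleotide. The Cdkn1a promoter is printed with its 2 half-sites in capitals, since this gene rose in all 4 libraries. Whether these half-sites bear on the rise was not tested.
Cdkn1a (chr17:29090729-29090978, plus strand): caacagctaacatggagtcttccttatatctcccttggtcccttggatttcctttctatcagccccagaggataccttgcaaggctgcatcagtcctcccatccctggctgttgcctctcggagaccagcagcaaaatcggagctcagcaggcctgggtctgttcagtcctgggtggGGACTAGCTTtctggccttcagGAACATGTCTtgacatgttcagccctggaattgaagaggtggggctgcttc

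Of 24 genes of endoplasmic reticulum and integrated stress, 2 rose (beside 0.618% of all genes), namely Ddit3 (CHOP, a factor of the integrated stress response) from 24.6 ± 0.897 to 29.7 ± 1.44 CPM (0.27, adjusted p = 0.00918) and Sdf2l1, an endoplasmic reticulum protein, from 9.81 ± 0.917 to 13.2 ± 2.02 CPM (0.43, 0.037). Gdf15, a secreted hormone induced by cell stress, lies below the level used for naming genes and was picked after its values were seen. It had 1, 4, 3, 3 and 2 counts in the saline libraries and 19, 19, 25 and 62 in the ASO 3 libraries, which is 0.0800 ± 0.0356 against 0.803 ± 0.406 CPM (log2 fold change 3.31, SE 0.44, adjusted p = 3.09e-06), and it passed with regional covariates (3.13) and in replicate 3 alone (3.13). The cell cycle gene Ccnd1 went from 51.2 ± 2.69 to 60.8 ± 4.90 CPM (0.25, 0.0455), the 1 gene that passed of 20 cell division genes (beside 1.7% of all genes). None of the 11 heat shock genes passed. The calls of Ddit3, Sdf2l1 and Ccnd1 were lost in 2, 6 and 7 of the 9 fits without 1 library, and that of Gdf15 in none. Gdf15 was not among the 17 genes that passed under all 17 alternative settings.

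Genes that microglia switch on around damage and plaques had higher means. All 25 measured members of the disease-associated microglia list had higher means in ASO 3, with a median of 0.50, and 3 rose (beside 0.618% of all genes). Itgax, an integrin chain, stood at 3.04, 6.01, 2.61, 3.91 and 3.51 CPM in saline and at 11.3, 11.7, 10.7 and 6.71 CPM in ASO 3, with no overlap (1.40, SE 0.35, adjusted p = 0.0346). The chemokine gene Ccl6 went from 3.34 ± 0.685 to 7.27 ± 2.04 CPM (1.11, 0.0272) and the protease gene Ctsd from 436 ± 55.5 to 632 ± 59.4 CPM (0.54, 0.0398). Gpnmb (1.5, 0.0972), Cst7 (1.35, 0.15), Clec7a (1.28, 0.0609), Tyrobp (0.67, 0.0572) and Trem2 (0.52, 0.172) did not pass. Saline replicate 2 was the highest of its group for most of these, with Gpnmb at 38.7 CPM beside 8.94 to 16.3 CPM in the other 4. Leaving out 1 library ended the calls of Itgax and Ccl6 in 6 of 9 fits and that of Ctsd in 8.

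The 20 homeostatic microglia genes had a median of 0.11 and none passed, and Cx3cr1 (0.10) and P2ry12 (0.03) differed little. Against the other 7 treatments none of the 25 disease-associated genes passed and their median was 0.15. With regional covariates none passed either (median 0.45), and in replicate 3 alone Ccl6 passed (1.38, 0.046). Wfdc17, a secreted protein of myeloid cells, went from 0.406 ± 0.205 to 1.17 ± 0.231 CPM (1.52, 0.00742). Atp6v0d2, a proton pump subunit known from osteoclasts and macrophages, went from 0.341 ± 0.230 to 1.49 ± 0.361 CPM (2.10, 0.0116), and the ligand gene Tnfsf9 from 0.593 ± 0.233 to 1.32 ± 0.402 CPM (1.15, 0.0106). Of 21 complement and chemokine genes Ccl6 and Ccl3 rose, beside 0.618% of all genes. Ccl3 went from 1.34 ± 0.643 to 2.62 ± 0.538 CPM (0.95, 0.0337). The call of Wfdc17 was kept with every library left out in turn. Atp6v0d2, Tnfsf9 and Ccl3 lost theirs in 1, 2 and 6 of 9 fits. With regional covariates Wfdc17 (1.56, adjusted p = 0.0253) and Tnfsf9 (1.32, 0.0175) passed. Atp6v0d2 (1.95, 0.114) did not, nor did any of the 21 complement and chemokine genes. In replicate 3 alone the changes were 1.67 for Wfdc17, 0.80 for Tnfsf9 and 2.07 for Atp6v0d2.

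Of 9 genes of macrophages at the brain's borders 2 fell and none rose, beside 1.08% and 0.618% of all genes. The scavenger receptor Cd163 stood at 1.43 ± 0.236 CPM in saline and 0.740 ± 0.162 CPM in ASO 3 (-0.95, adjusted p = 0.0106) and the mannose receptor Mrc1 at 4.12 ± 0.381 and 2.69 ± 0.222 CPM (-0.62, 0.0113). Neither passed with regional covariates (0.127 and 0.0845), and leaving out 1 library ended the call of Cd163 in 2 of 9 fits and of Mrc1 in 1.

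None of 25 interferon response genes passed against saline, with a median of -0.21, and none of 11 class I antigen presentation genes did, with a median of 0.04. Against the other 7 treatments 16 of the interferon genes were lower (beside 1.82% of all genes), but none of 25 was when the RTR113609 libraries were left out, a setting chosen after the data were seen.

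Of 46 lysosomal genes 38 had higher means (beside 9845 of 19246 genes), the median was 0.08, and 4 rose (beside 0.618% of all genes). Ctsl went from 128 ± 6.45 to 152 ± 8.73 CPM (0.25, adjusted p = 0.00931), and Npc2, which binds cholesterol in the lysosome, from 100 ± 5.27 to 117 ± 6.09 CPM (0.23, 0.0239). Glb1, the lysosomal beta-galactosidase, went from 30.1 ± 2.44 to 34.8 ± 1.73 CPM (0.21, 0.0407), and the fourth was Ctsd. None of the 46 passed with regional covariates or in replicate 3 alone, and Ctsl, Npc2 and Glb1 lost their calls in 2, 5 and 6 of the 9 fits without 1 library.

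Myelin genes moved in both directions. Mal, a proteolipid of myelin sorting, stood at 391, 419, 356, 372 and 393 CPM in saline and at 279, 270, 245 and 235 CPM in ASO 3, with no overlap (-0.59, SE 0.08, adjusted p = 6.07e-06). It was -0.70 with regional covariates and -0.66 in replicate 3 alone (0.0806). Cldn11 fell as given above, and Opalin, a glycoprotein of myelinating cells, went from 42.7 ± 7.90 to 30.0 ± 5.55 CPM (-0.51, 0.0233). Trf, the iron carrier transferrin made by oligodendrocytes in brain, stood at 58.1 to 73.4 CPM in saline and at 102, 95.3, 93.3 and 108 CPM in ASO 3 (0.54, SE 0.08, 1.57e-05). The gap junction gene Gjb1 also rose, from 24.6 ± 1.84 to 31.6 ± 3.23 CPM (0.36, 0.0102). These 5 of 25 were the members that passed (beside 1.7% of all genes), the median was 0.05, and Mbp, a major myelin protein, did not pass (-0.03). With regional covariates 6 of the 25 were lower and 1 was higher, beside 0.644% of all genes in either direction. The list median in that fit was -0.12. Without 1 library Gjb1 lost its call in 1 of 9 fits and Opalin in 4, and Mal, Trf and Cldn11 in none. None of 14 oligodendrocyte precursor genes passed.

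All 16 astrocyte identity genes had slightly higher means, with a median of 0.07 and no call. Among 27 reactive astrocyte genes the receptor gene Cd44 rose (beside 0.618% of all genes), from 5.16 ± 0.943 to 9.17 ± 1.55 CPM (0.82, adjusted p = 0.00312). With regional covariates Cd44 changed by 0.63 and did not pass (adjusted p = 0.0504), and in replicate 3 alone it changed by 0.87. Gfap, the filament protein of reactive astrocytes, stood at 423 ± 69.0 and 646 ± 81.7 CPM without passing (0.61, 0.0698).

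Of 19 inhibitory neuron genes 4 fell and none rose, beside 1.08% and 0.618% of all genes. They were Dlx5 (-0.43, adjusted p = 0.00481), Lhx6 (-0.38, 0.0114) and Dlx6 (-0.48, 0.0139), all factors of forebrain interneuron development, and Gad1 (-0.20, 0.0355), which makes GABA. Of the 19 genes 8 had positive log2 fold changes, and the list median was -0.08. Against the other 7 treatments the list median was 0.02. Lhx6 stood at 39.3 to 40.8 CPM in saline and at 25.6, 27.1, 37.4 and 32.6 CPM in ASO 3. The library nearest to saline was replicate 3, the one without high Pmch, and with regional covariates none of the 4 passed, at -0.24 for Lhx6. Dlx5, Lhx6, Dlx6 and Gad1 lost their calls in 0, 2, 3 and 7 of the 9 fits without 1 library. The part of the regional levels in these falls was not tested.

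Of 40 synaptic adhesion genes, Lrrtm1 rose and Lrrtm4, its paralog, fell from 40.3 ± 1.76 to 32.4 ± 1.89 CPM (-0.32, adjusted p = 0.000555). Over all genes 0.618% rose and 1.08% fell, and the list median was -0.01. Against the other 7 treatments 7 of the 40 were higher and none lower, beside 1.71% and 1.82% of all genes, and 6 were higher and 1 lower without the RTR113609 libraries. Of 24 glutamate receptor genes 1 fell and none rose, beside 1.08% and 0.618% of all genes. Grid1, a delta receptor, fell from 101.1 ± 2.10 to 81.5 ± 2.59 CPM (-0.31, 1.35e-06). It also passed against the other treatments (-0.23, 3.30e-06). There 3 of the 24 were higher and 1 lower, beside 1.71% and 1.82% of all genes. Without the RTR113609 libraries none of the 24 was higher and 1 was lower. Of 18 vesicle release genes the active zone scaffold gene Pclo fell (-0.17, 0.0368), beside 1.08% of all genes. The call of Pclo was lost in 6 of the 9 fits without 1 library. None of 14 GABA receptor genes and none of 25 sodium and calcium channel genes passed.

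Genes that fell tended to be long. The median span of protein-coding genes was 63.0 kb for those lower in ASO 3, 17.0 kb for those higher and 24.9 kb for all tested. The share spanning at least 200 kb was 23.6% of the lower, 2.59% of the higher and 6.20% of all. For the 30 protein-coding genes lower by at least 1.5-fold the median span was only 28.1 kb, while 26.7% of them spanned at least 200 kb. These are descriptions without a test, and the lower genes were also more abundant, with a median of 47.2 CPM in saline against 21.5 CPM for all. Of 27 very long genes 5 fell (beside 1.08% of all genes) and none rose, namely Csmd1 (-0.34), Fhit (-0.69), Dlg2 (-0.25), Csmd3 (-0.31) and Lrp1b (-0.25), and the median was -0.13. Against the other 7 treatments 2 of the 27 were higher and 1 lower, beside 1.71% and 1.82% of all genes. Of the 5 that fell against saline, Csmd1, Fhit, Csmd3 and Lrp1b did not pass there, with Fhit at 0.01 and Csmd3 at 0.04, whereas Dlg2, a synaptic scaffold gene, did (-0.19, adjusted p = 0.00462). Against saline, Dlg2, Csmd3 and Lrp1b lost their calls in 1, 2 and 6 of the 9 fits without 1 library, and Csmd1 and Fhit in none. With regional covariates 3 of the 27 were lower, beside 0.644% of all genes in either direction, and the median was -0.16. Csmd1 (-0.26) and Fhit (-0.70) passed in that fit, and Dlg2 did not (-0.15, adjusted p = 0.191). In replicate 3 alone the median was -0.12, with Csmd1 at -0.15, Fhit at -0.68 and Dlg2 at -0.12.

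The largest rises among genes above 1 CPM were in genes of hypothalamus and blood. The hypothalamic peptide genes Hcrt (orexin), Pmch, Pomc and Ghrh rose, 4 of 16 (beside 0.618% of all genes) in a list whose median was 1.19. Hcrt stood at 0.0310 to 0.241 CPM in saline and at 19.1, 11.1, 0.174 and 16.5 CPM in ASO 3 (7.15, adjusted p = 0.0233), so replicate 3 lay within the saline range. Pmch behaved alike, as given above (6.13, 0.0394), and Pomc went from 1.7 ± 0.901 to 7.73 ± 3.74 CPM (2.18, 0.0329) and Ghrh from 0.299 ± 0.172 to 1.17 ± 0.623 CPM (1.94, 0.00466). Nr5a1, a factor of the ventromedial hypothalamus, was high in the same 3 libraries and passed against the other treatments (2.83, 0.00259) but not against saline (3.13, 0.059). None of the 16 passed without the high-Pmch libraries or with regional covariates, a fit that uses this list. Leaving out 1 library ended the calls of Hcrt, Pmch, Pomc and Ghrh against saline in 6, 8, 7 and 1 of 9 fits.

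All 13 thalamic genes were higher with a median of 0.65, and all 19 striatal genes were lower with a median of -0.42, and none of either list passed. Tcf7l2, a thalamic factor, stood at 18.2 to 20.3 CPM in saline and at 50.3, 46.5, 11.9 and 38.8 CPM in ASO 3. The striatal genes Drd1 (-0.49) and Ppp1r1b (-0.45) lay lowest in the 3 high-Pmch libraries. The cortex and hippocampus list had a median of -0.05 with no call.

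Of 7 red blood cell genes measured 5 rose (beside 0.618% of all genes), with a list median of 3.11. Hbb-bs, an adult beta-globin, stood at 5.40, 1.75, 3.15, 2.70 and 2.00 CPM in saline and at 51.1, 34.95, 24.4 and 7.44 CPM in ASO 3 (3.28, SE 0.80, adjusted p = 0.0279). Alas2, the heme synthesis enzyme of red cell precursors, followed the same order of libraries, at 3.12, 2.34, 1.92 and 0.428 CPM against 0.181 to 0.310 CPM (3.00, 0.0437). Hba-a1 and Hba-a2, and Hbb-bs and Hbb-bt, are near-identical pairs that can exchange reads. Replicate 3, without high Pmch, had 24.4 CPM of Hbb-bs, so the blood genes and Pmch ranked the libraries differently. None of the 7 passed with regional covariates or in replicate 3 alone, and Hbb-bs and Alas2 lost their calls in 6 and 7 of the 9 fits without 1 library.

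**Figure D5:**
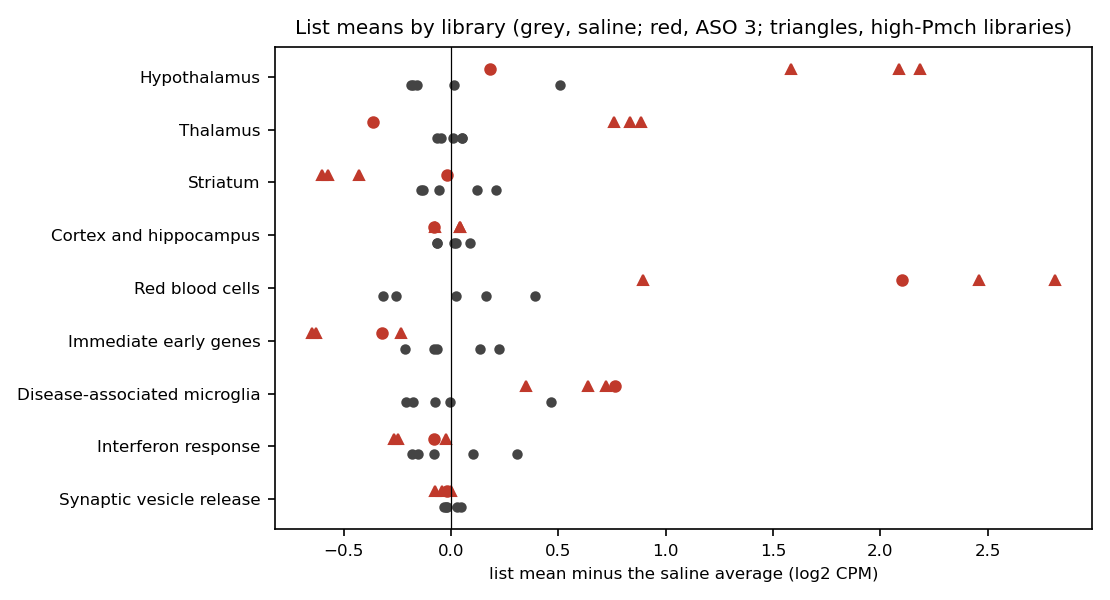
Mean level of 9 gene lists in each library, as the difference from the saline average (log2 CPM), with saline in grey, ASO 3 in red and triangles for the high-Pmch libraries. The hypothalamic, thalamic and striatal lists separate the 3 triangles from all other points, while for immediate early genes all 4 ASO 3 libraries lie below the 5 saline libraries.

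Other lists showed no call. These were the genes of brain endothelium (19), pericytes, smooth muscle and fibroblasts (15, median -0.19), choroid plexus and ependyma (16, all positive, median 0.21), monoamine and cholinergic neurons (9 measured), cholesterol synthesis and uptake (23), glucocorticoid response (13), mitochondrially encoded genes (13) and RNase H, RNA decay and paraspeckles (14). The choroid plexus and ependyma mean was 4.81 (log2 CPM) in ASO 3 replicates 1 and 2 and 4.26 and 4.37 in replicates 3 and 4, beside 4.22 to 4.47 in saline.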

How the data were processed

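Polyadenylated RNA was sequenced with a stranded kit, per the labels' protocols. Reads were aligned with GSNAP to GRCm38, per the submitters' processing notes. No label or header used here names the versions, the counting tool, its annotation or its strand setting. The authors deposited whole-number counts, and RPKM (counts scaled to gene length and sequencing depth), for 52636 genes per library. Counts were analysed. RPKM served only to check that summed counts were 86.1 to 88.2% of its denominator.

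The quasi-likelihood test of edgeR 4.0.16 (R 4.3.3; filterByExpr, TMM scaling, robust fit over all 9 groups, two-sided) gave log2 fold changes. P-values were adjusted by Benjamini-Hochberg over 19246 genes, with a threshold of 0.05. The SE is the log2 fold change divided by the root of F. CPM uses TMM-scaled totals. Alternatives used limma 3.58.1 voom, DESeq2 1.42.0, other scaling, no filter, fewer groups or libraries, and regional covariates.

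Symbols were found for 52403 genes, and positions for 19211 of 19246 tested genes in GENCODE M21. Named genes were Tmem106b, its family and Grn, plus, in each direction, the 12 largest called changes of non-overlapping genes at 1 CPM or more (6 against the other treatments), and up to 4 called members per list. Other genes of a list are named as background to it. Lists, rule and comparison were chosen with earlier results of these data known. Replicate numbers follow accession order. No source says that the replicates are separate animals, so p-values measure only the spread between these samples. All pairs of libraries within a group differed beyond sampling noise (chi-square per degree of freedom 4.01 to 12.7). Some results are not reported here.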

Additional observations from a re-analysis of the deposited data

Results flagged for a closer look

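In 16 of 232 sets of values examined, 1 library stood apart from its group by Dixon's gap test, and chance alone gives about 1 in 20. In saline the highest library stood apart for Tmem106a (3.38 CPM), Pomc (3.26 CPM), Hcrt (0.241 CPM), Ctsd (532 CPM), Ccl3 (2.47 CPM) and Dlx5 (13.6 CPM), and the lowest for Ano2 (11.2 CPM) and Csmd3 (26.3 CPM). In ASO 3 the highest library stood apart for Csmd1 (46.0 CPM, replicate 3) and Sdf2l1 (16.2 CPM, replicate 4), and the lowest for Lamc1 (22.9 CPM, replicate 4).

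Among list means (log2 CPM), the highest saline library stood apart for class I antigen presentation (4.06), complement and chemokines (3.87), reactive astrocytes (3.23) and hypothalamus (1.59), and in each of these it was saline replicate 2. The same library was the highest for Tmem106a, Pomc, Hcrt, Ctsd and Ccl3. For the thalamus list the lowest ASO 3 library stood apart (3.94), and it was replicate 3.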

How the results depend on the processing

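The 327 genes past the threshold against saline became 505 with saline and ASO 3 alone, 557 with DESeq2, 934 with limma voom, 124 once regional covariates were added and 25 without the high-Pmch libraries, and 120 to 607 when 1 library was left out. DESeq2 called 314 of the 327. The 680 genes against the other 7 treatments became 2030 with limma voom, 139 once regional covariates were added and 28 without the high-Pmch libraries, and 228 to 1064 when 1 library was left out; without RTR113609, a setting chosen after the data were seen, they were 581.

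Tmem106b fell in every setting, by 1.26 to 1.40 (log2) with 1 library left out (-1.40 to -1.26), and missed the threshold without the high-Pmch libraries (-1.26). Grn ran from 0.38 to 0.48 with 1 library left out, and passed the threshold with saline and ASO 3 alone (0.41), with DESeq2 (0.41), with limma voom (0.39) and without saline replicate 2 (0.48). With regional covariates the sign turned for Pmch against saline (-0.085) and, against the other treatments, for Pmch (-0.96), Hcrt (-0.61) and Nr5a1 (-0.11). Without the high-Pmch libraries it turned for Pmch against saline (-0.61) and against the other treatments (-0.0082). The cause was not tested.

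Of 70 named calls against saline, regional covariates ended 39 and leaving out the high-Pmch libraries 50, while median-of-ratios scaling kept all 70 and DESeq2 kept the 68 to which it gave an adjusted p. Leaving out ASO 3 replicate 1, 2, 3 or 4 ended 35, 25, 3 and 21. No paired analysis was possible because the labels give no replicate numbers. Counting error limits genes under 1 CPM, such as Gdf15 with 1 to 4 counts per saline library.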
